A study of Mus musculus with 8 samples.

Results

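Windows of the mouse genome around 6 genes of the endosomal and lysosomal system, Ctsb, Psap, Lrp1, Gpnmb, Lgals3 and Ctsd, were examined for peaks of the histone demethylase KDM4B and of its substrate mark H3K9me3. The windows were chosen by the width of KDM4B peaks in wild-type cells. Each holds 1 of the widest, called the domain below, and a peak was a member if its midpoint lay in a window. The 6 windows span 305 kb and held 136 of the 88367 peaks in the 6 lists. These were 70 of the 32017 KDM4B peaks of WT cells and 66 of the 55306 H3K9me3 peaks of KO cells. The other 4 lists gave 0.

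Primary mesenchymal stem cells of mouse bone marrow came from Prx1Cre; Kdm4bf/f mice (KO), in which Cre deletes Kdm4b, and from Prx1Cre; Kdm4bw/w mice (WT), so both genotypes carried Cre. The Prx1 promoter drives Cre in limb mesenchyme, and the labels give no ages for the animals. All cells had 4 hours of osteogenic induction. Chromatin immunoprecipitation sequencing (ChIP-seq) gave 1 peak list per genotype for KDM4B, H3K9me3 and total histone H3. The genotype of the KDM4B libraries is given by their titles alone. With 1 library per antibody and genotype there was no replicate check and no test, and all intervals are 95% intervals for counting error only. The H3 library of WT cells held 40420466 tags after filtering, and it is the 1 library with a stated depth. Peaks in the other 5 lists carry positions only, so a peak count can also move with depth, control and threshold, and these could not be told apart from genotype.

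KDM4B is a histone demethylase that acts on H3K9me3, the trimethylated lysine 9 of histone H3 that marks repressed chromatin. Lysosomes degrade material delivered by endocytosis and autophagy. Many genes of lysosomal enzymes are driven by the transcription factor TFEB through promoter elements built on the E-box CACGTG. Of the genes considered here, Ctsb and Ctsd encode the proteases cathepsin B and cathepsin D, and Psap encodes prosaposin, the precursor of saposins that help lysosomal enzymes degrade sphingolipids. Gpnmb encodes a transmembrane glycoprotein of melanosomes and lysosomes, Lgals3 encodes galectin-3, a sugar-binding lectin that gathers on damaged lysosomes, and Lrp1 encodes a large endocytic receptor that delivers ligands to them. Galectin-3 and the receptor are thus linked to lysosomes without being lysosomal enzymes.

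Gene names are those attached to the windows in mouse build mm9. Gene borders in that build were not used here, because the gene table at hand is of build GRCm38.p6, so domain borders could not be compared with gene borders and no peak is assigned to an exon, an intron or a gene start. In GRCm38.p6 the nearest protein-coding genes on the lower and higher side were Defb42 and Fdft1 for Ctsb, Chst3 and Cdh23 for Psap, and Nxph4 and Stat6 for Lrp1. They were Svs1 and Malsu1 for Gpnmb, Mapk1ip1l and Dlgap5 for Lgals3, and Ifitm10 and Syt8 for Ctsd. Peaks near the edges of a window may lie on such a neighbour.

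RefSeq promoter sequences matched Psap, Lrp1, Gpnmb, Lgals3 and Ctsd. The 250 bases before each of these starts were searched for CACGTG and for TCACGTG, which contains it, on both strands. The Ctsd promoter held CACGTG at 2 places, beginning 245 and 98 bases before the start, and at least 1 TCACGTG, and the other 4 held neither. CACGTG was found in 6.02% and TCACGTG in 3.13% of all 32851 promoter windows of that length. The promoters of 3 genes are shown because they span the range of these genes, from Ctsd, which has the E-box and the most CpG dinucleotides of the 5, to Gpnmb, which has the fewest, with capitals marking CACGTG, in GRCm38.p6 and written 5′ to 3′ on the strand of the gene. Their positions belong to GRCm38.p6 and cannot be set against the mm9 positions of the peaks.
Ctsd, chr7:142387828-142388077, minus strand: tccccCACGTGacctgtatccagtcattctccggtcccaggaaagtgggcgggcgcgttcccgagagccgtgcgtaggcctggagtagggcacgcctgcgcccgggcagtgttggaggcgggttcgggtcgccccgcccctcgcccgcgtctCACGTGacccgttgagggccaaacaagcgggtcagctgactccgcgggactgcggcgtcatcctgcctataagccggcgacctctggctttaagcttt
Psap, chr10:60277378-60277627, plus strand: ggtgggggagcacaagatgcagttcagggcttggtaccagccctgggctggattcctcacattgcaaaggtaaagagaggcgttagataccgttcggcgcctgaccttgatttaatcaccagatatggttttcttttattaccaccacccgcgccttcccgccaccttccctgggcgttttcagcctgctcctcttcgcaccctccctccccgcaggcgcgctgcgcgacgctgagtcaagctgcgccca
Gpnmb, chr6:49036268-49036517, plus strand: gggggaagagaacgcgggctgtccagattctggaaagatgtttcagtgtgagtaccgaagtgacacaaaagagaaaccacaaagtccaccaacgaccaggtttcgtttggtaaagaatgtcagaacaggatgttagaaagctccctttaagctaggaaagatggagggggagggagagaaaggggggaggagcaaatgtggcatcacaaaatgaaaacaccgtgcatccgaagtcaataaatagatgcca

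The Ctsd promoter had 27 CpG dinucleotides and 67.2% G or C in these 250 bases. Psap had 16 CpG at 58.8%, Lrp1 13 at 67.2%, Lgals3 13 at 66.0% and Gpnmb 7 at 47.2%. The median over all promoters was 6 CpG at 52.4%, so Gpnmb lay near the median in CpG and the other 4 lay above it. Of a list of 64 lysosomal genes (enzymes, membrane proteins, proton pump subunits and regulators), 51 were matched. CACGTG was found in a promoter of 17 of these 51 genes, or 33.3%, against 6.86% of all 27025 genes. TCACGTG was found for 15 of the 51, or 29.4%, against 3.58% of all genes. The list included Ctsb, Ctsd and Psap, but Ctsb had no promoter sequence at hand and is not among the 51. A match is a string of letters, not a binding site.

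The first comparison set KDM4B in cells with and without the gene. In KO cells none of the 6 windows held a KDM4B peak. In WT cells they held 70 peaks that covered 208 kb, or 68.2% of the windows. Over the chromosomes as a whole the WT list covered 0.941%, and the windows would hold 3.80 peaks at its mean density. The WT coverage is what the windows were chosen for and is given as a description. The KO list had 35 peaks in all and would place 0.00416 in the windows at its mean density. Its nearest peak to any of the domains lay 54595 kb above the one at Gpnmb, and it had no peak on the chromosomes of the other 5.

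H3K9me3 showed the opposite arrangement of genotypes. In KO cells the windows held 66 H3K9me3 peaks that covered 19.9 kb, or 6.52% of their length, and in WT cells they held 0. The KO list would place 6.57 peaks in the windows at its mean density. The WT list had 943 peaks in all and would place only 0.112 there, so 0 peaks is close to its mean density. A count of 0 over 305 kb allows up to 0.00984 peaks per kb. The nearest WT H3K9me3 peak lay from 2053 kb (Psap) to 13428 kb (Gpnmb) from a domain. Total H3 gave 0 peaks in the windows in KO and in WT cells, where the whole lists held 28 peaks for KO and 38 for WT. The lists differ so much in length that the windows' contrast of 66 with 0 was not tested as an effect of genotype.

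**Figure D1:**
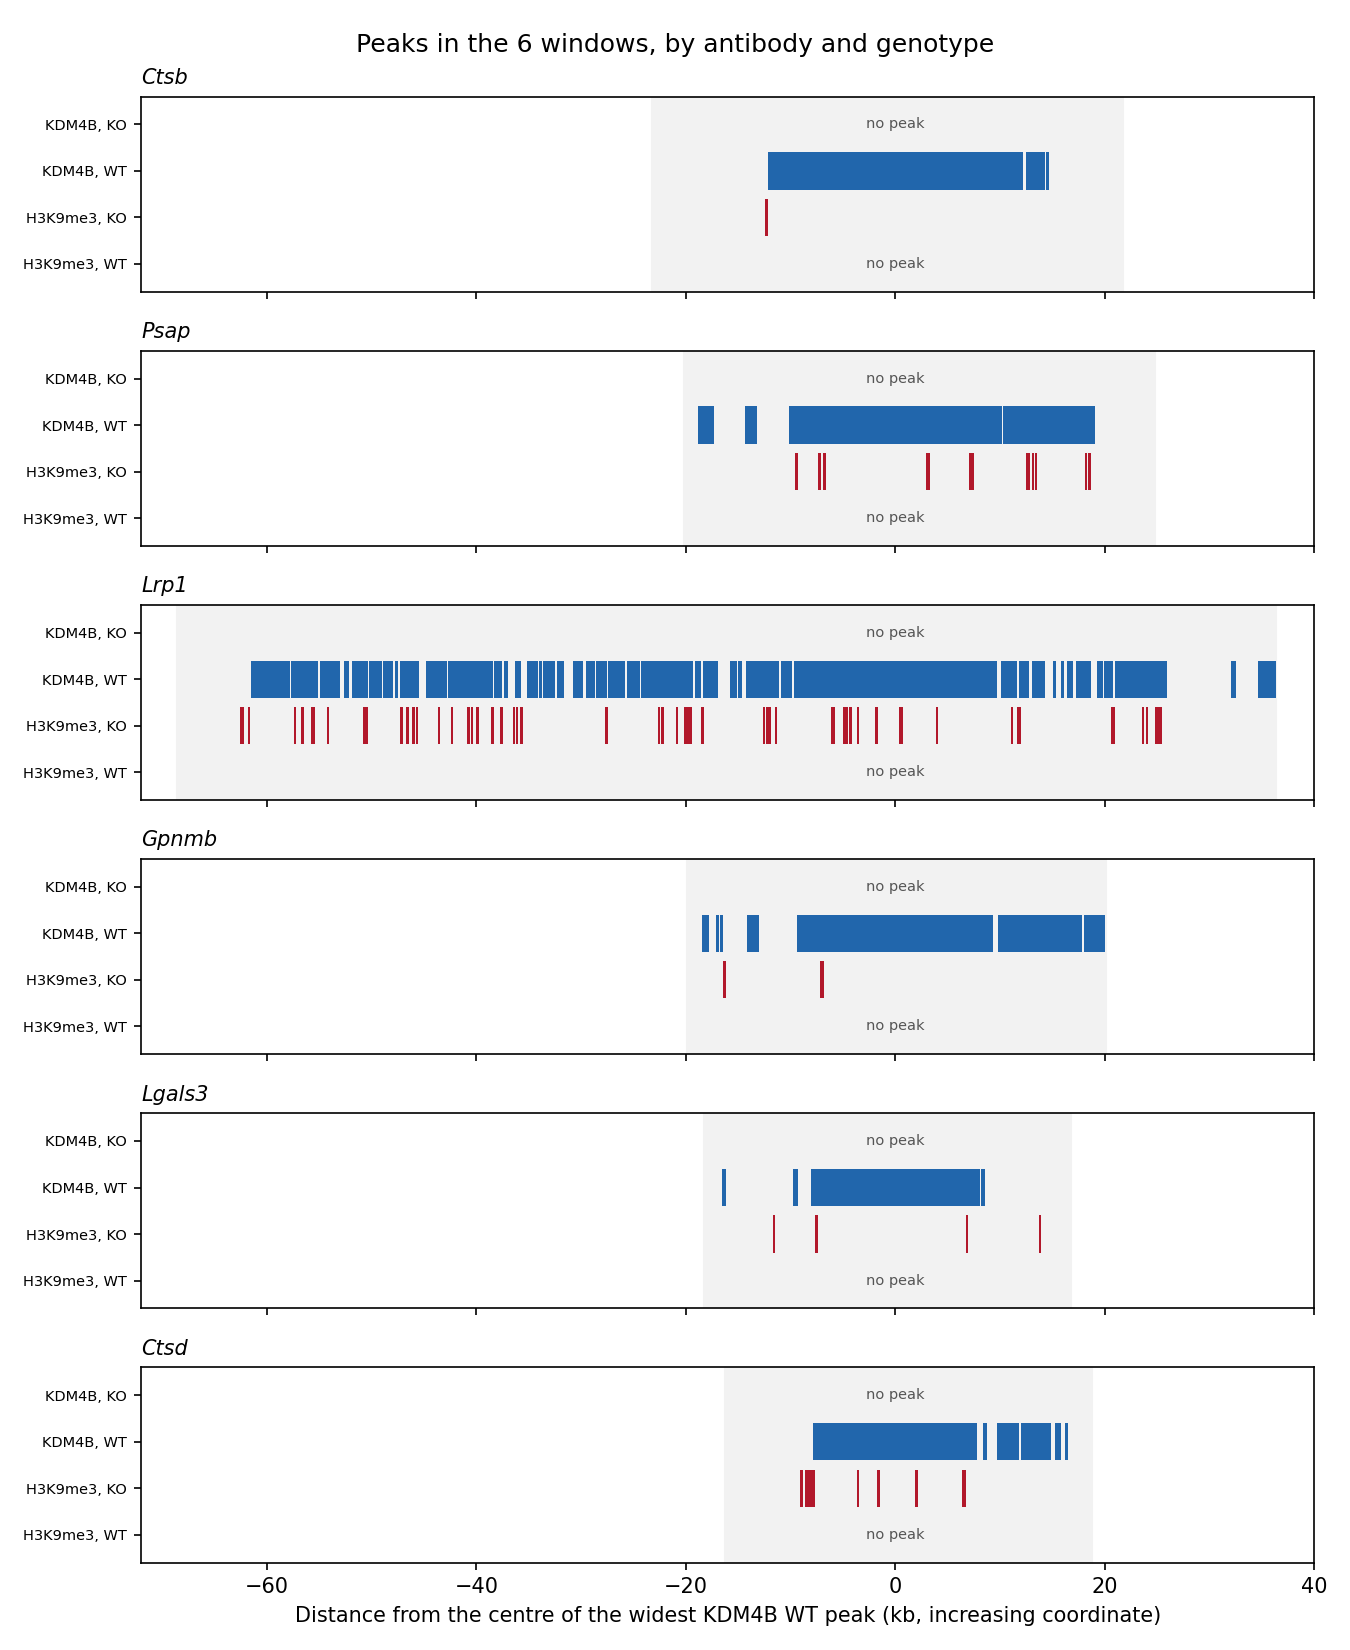
Peaks in each of the 6 windows (grey), by distance in kb from the centre of the widest KDM4B WT peak, with KDM4B in blue and H3K9me3 in red, KO above WT for KDM4B and for H3K9me3. KDM4B WT peaks fill 49.9 to 77.8% of each window, H3K9me3 KO peaks number 1 to 43, and the KDM4B KO and H3K9me3 WT rows are empty.

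By width, the domains ranked the 2nd, 3rd, 4th, 6th, 9th and 10th among the KDM4B WT peaks. They measured 24.3 kb at Ctsb, 20.3 kb at Psap, 19.4 kb at Lrp1, 18.7 kb at Gpnmb, 16.2 kb at Lgals3 and 15.7 kb at Ctsd. The narrowest member, Ctsd, was followed in rank by peaks of 15.4 kb on chromosome 17 from 34245955 to 34261324 and of 15.2 kb on chromosome 7 from 107641425 to 107656591, which are not members. The median width over all KDM4B WT peaks was 509 bp. The windows differed in how much of their KDM4B lay in 1 unbroken peak. At Lgals3 and Ctsb the domain held 92.6 and 91.9% of the covered length of the window, at Ctsd, Psap and Gpnmb 67.0, 64.1 and 60.2%, and at Lrp1 24.9%.

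Among the proteases, Ctsb had the widest domain and none of the mark inside it. The domain ran on chromosome 14 from 63741118 to 63765427. It was followed on its higher side by peaks of 1.86 kb and 274 bp, of which the first began 306 bp beyond the border. On its lower side the next KDM4B peak was 17674 bp away, the longest such gap among the 6. The window's 1 H3K9me3 peak of KO cells, 244 bp wide, lay from 63740867 to 63741110 and stopped 7 bp short of the lower border. A count of 0 within 24.3 kb allows up to 0.123 peaks per kb at a limit of 3 counts. Its exact interval ends at 0.152 per kb. The rate over the 6 domains together was 0.174 per kb.

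Ctsd, the other protease gene, had the mark spread along its domain. The domain lay on chromosome 7 from 149558383 to 149574049, and 5 H3K9me3 peaks of KO cells overlapped it, or 0.319 per kb (0.104 to 0.745), covering 9.19% of its length. The longest stretch of the domain free of the mark was 4.12 kb. One of the 5, from 149557575 to 149558514, crossed the lower border, with 132 bp inside the domain and its midpoint outside. At 940 bp it was the widest H3K9me3 peak in the 6 windows, where the median width was 258 bp, against 256 bp over the whole KO list. Below the border, the first 5 kb held no KDM4B and 20.9% H3K9me3, and above the domain the first 5 kb held 65.5% KDM4B and no H3K9me3. KDM4B went on beyond the higher end of the window: peaks joined across gaps of up to 1 kb made a run of 8 peaks and 28.7 kb.

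At Psap the domain lay on chromosome 10 from 59740042 to 59760358 and was almost continuous with a second wide peak. After a gap of 139 bp, KDM4B resumed for 8.75 kb, so that joined peaks spanned 29.2 kb. H3K9me3 of KO cells was spread over both. The domain held 5 peaks, or 0.246 per kb (0.0799 to 0.574), covering 8.20%, and the second peak held another 5, covering 15.2%. All 10 H3K9me3 peaks of the window lay under these peaks of KDM4B, and the 13.3 kb of the window without KDM4B held none. Over the whole KO list 15.7% of H3K9me3 peaks overlapped a KDM4B WT peak, but KDM4B covered 70.4% of this window. The longest stretch of the domain free of the mark was 9.54 kb.

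The Gpnmb and Lgals3 domains held little of the mark. Gpnmb, on chromosome 6 from 48985523 to 49004260, held 1 H3K9me3 peak of KO cells, from 48987735 to 48988043, or 0.0534 per kb (0.00135 to 0.297), covering 1.65%. Its next KDM4B peak, 7.97 kb wide and 483 bp away on the higher side, held none, and the joined run of 3 peaks spanned 29.4 kb. Lgals3, on chromosome 14 from 47993170 to 48009348, held 2 H3K9me3 peaks, or 0.124 per kb (0.0150 to 0.446), covering 2.96%. They sat near opposite ends, at 0.540 kb from the lower and 1.25 kb from the higher border, with 14.2 kb between them. Around Lgals3 there was little other KDM4B: the second widest peak of that window measured 481 bp, a ratio of 33.6 between the domain and it.

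Lrp1 differed from the other 5 in layout. Its domain, on chromosome 10 from 127023898 to 127043323, sat in a chain of 46 KDM4B peaks. Of the 45 gaps between neighbours, 42 were under 1 kb, with a median of 195 bp. The other 45 peaks ranged from 238 to 4970 bp with a median of 1011 bp, and 23 of them were 1 kb or more. H3K9me3 of KO cells had 43 peaks in the window, of which 41 overlapped KDM4B, which covered 74.2% of it. The domain itself held 7, or 0.360 per kb (0.145 to 0.742), covering 11.4%, and these lay between 3.78 kb and 13.7 kb from its lower border. The last 5.62 kb before the higher border held none.

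The domains were then set against the rest of their windows. H3K9me3 peaks of KO cells covered 5.33% of the 6 domains together and 7.23% of the window sequence outside them. Lrp1 made up much of the outside: without it the shares were 4.09% in the 5 domains and 3.14% outside. The direction therefore turned with 1 window. Within single windows the domain had the higher share at Psap (8.20%, against 5.40% outside), Gpnmb (1.65 against 0.936%), Lgals3 (2.96 against 2.11%) and Ctsd (9.19 against 5.78%). It had the lower share at Ctsb (0 against 1.18%) and Lrp1 (11.4 against 12.2%). Counted by midpoints, there were 0.166 peaks per kb (0.0998 to 0.259) in the domains and 0.247 per kb (0.181 to 0.328) outside, and these intervals overlap. In single windows, peaks inside and outside numbered 5 and 5 at Psap, 1 and 1 at Gpnmb and 2 and 2 at Lgals3. They numbered 4 and 2 at Ctsd, 0 and 1 at Ctsb and 7 and 36 at Lrp1. The inside and outside intervals overlap in each window, so no direction is read from a single window.

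**Figure D2:**
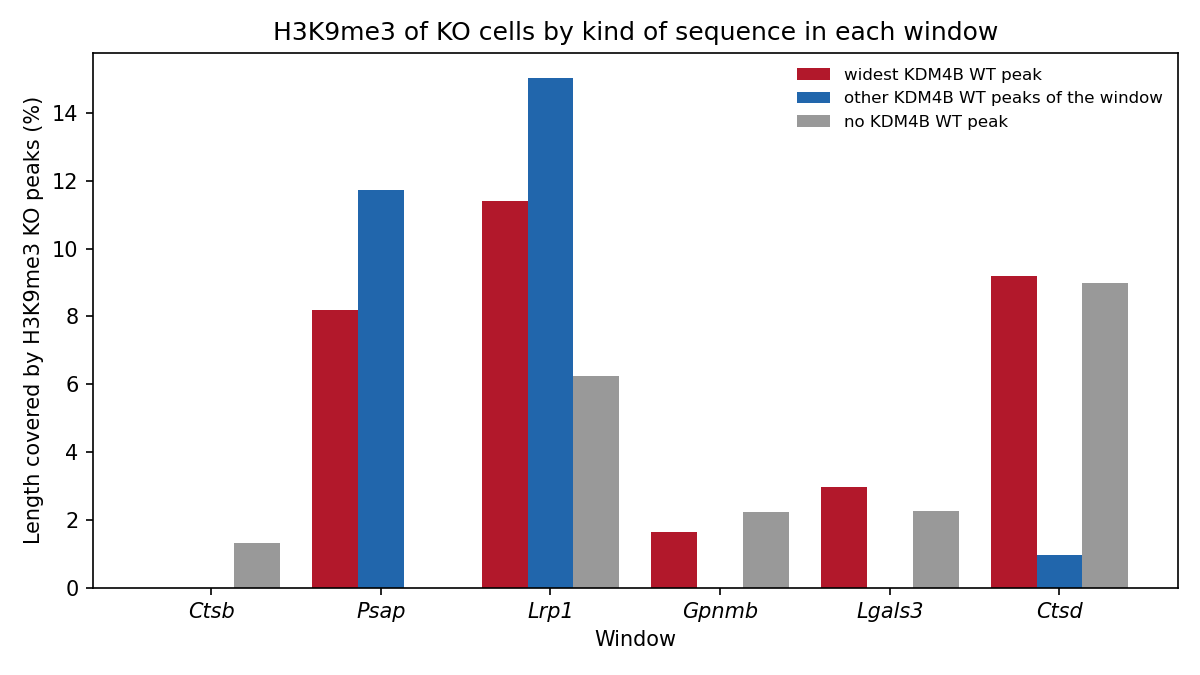
Share of length (percent) covered by H3K9me3 KO peaks in the widest KDM4B WT peak, in the other KDM4B WT peaks and in KDM4B-free sequence of each window, 1 library, no error bars. Bars are missing where the share is 0, as in the Ctsb domain and in the KDM4B-free part of the Psap window, and the highest is 15.0% in the other KDM4B peaks at Lrp1.

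Sequence under the other KDM4B peaks of the windows was covered by H3K9me3 for 10.9% of its length, and sequence with no KDM4B peak for 3.69%. The Lrp1 window supplied 8785 of the 10193 bp under those other peaks. Without it the shares were 4.04% under the other KDM4B peaks, close to the 4.09% of the 5 domains, and 2.69% where there was no KDM4B peak. The other KDM4B peaks at Ctsb, Gpnmb and Lgals3 held 0. Of the 66 H3K9me3 peaks, 59 overlapped a KDM4B WT peak, 20 of them a domain. The share over the whole KO list was 15.7%, but the windows were chosen for wide KDM4B peaks and KDM4B covered 68.2% of them, so nothing is read from this count. The 7 that did not were 2 each at Lrp1 and Lgals3 and 1 each at Ctsb, Gpnmb and Ctsd. Of the 20 that overlapped a domain, 13 lay nearer the lower border and 7 nearer the higher one. Their widths ran from 199 to 940 bp with a median of 312 bp.

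The borders were not alike on their 2 sides. At 5 of the 6 domains the gap to the next KDM4B peak was longer on the lower side, at 1156 to 17674 bp, than on the higher side, at 106 to 540 bp. At Lrp1 the lower gap was 131 bp and the higher 368 bp. The lower gap was the longer one at 11 of the 23 other KDM4B WT peaks of 10 kb or more. RefSeq places Psap, Gpnmb and Lgals3 on the plus strand and Lrp1 and Ctsd on the minus strand in GRCm38.p6. If they lie the same way round in mm9, the longer gap was on the side of the gene start for Psap, Gpnmb, Lgals3 and Lrp1. For Ctsd it was on the side of the gene end. Ctsb had no promoter sequence at hand and is left out of this comparison, which was not tested. The windows were chosen by the width of KDM4B peaks, and both widths and gaps are given as a description.

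The last comparison asked whether the domains carried more or less of the mark than other wide KDM4B peaks. An H3K9me3 peak of KO cells overlapped 5 of the 6 domains. The share was 22.8% over all KDM4B WT peaks, but a wide peak has more room for an overlap, and it was 77.0% of the 183 peaks of 5 kb or more outside the windows and 87.0% of the 23 of 10 kb or more. The count of 5 in 6 is near the shares of wide peaks and is no result about lysosomal genes. The 4 other peaks at least as wide as the Ctsd domain had an overlap in 3 cases.

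By density, the domains lay among the other wide peaks. They held 0.174 H3K9me3 peaks per kb (0.107 to 0.269), against 0.249 per kb (0.197 to 0.312) in the other peaks of 10 kb or more, and the intervals overlap. Covered length was 5.33% in the domains, against 7.95% in the other peaks of 10 kb or more and 9.75% in those of 5 kb or more. Over all KDM4B WT peaks it was 10.4%, and over the chromosomes 0.665%. Medians over single peaks were closer, at 0.185 per kb for the 6 domains and 0.183 per kb for the 23 others. The median covered length was 5.58% for the 6 domains and 4.78% for the 23 others, the reverse of the pooled order. The mean of the 23 was raised by a peak on chromosome 5 from 143575232 to 143585534, with 11 H3K9me3 peaks and 35.6% covered, and one on chromosome 10 from 79610386 to 79625388, with 10 and 28.5%. The 4 others at least as wide as the Ctsd domain had 0.121 per kb (0.0583 to 0.223) and 3.11% covered. In the order of density over all 29 peaks of 10 kb or more, from lowest to highest, Lgals3 was the 12th, Psap the 19th, Ctsd the 21st and Lrp1 the 22nd. Ctsb shared the lowest place with 3 others at 0, and Gpnmb was the 5th.

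**Figure D3:**
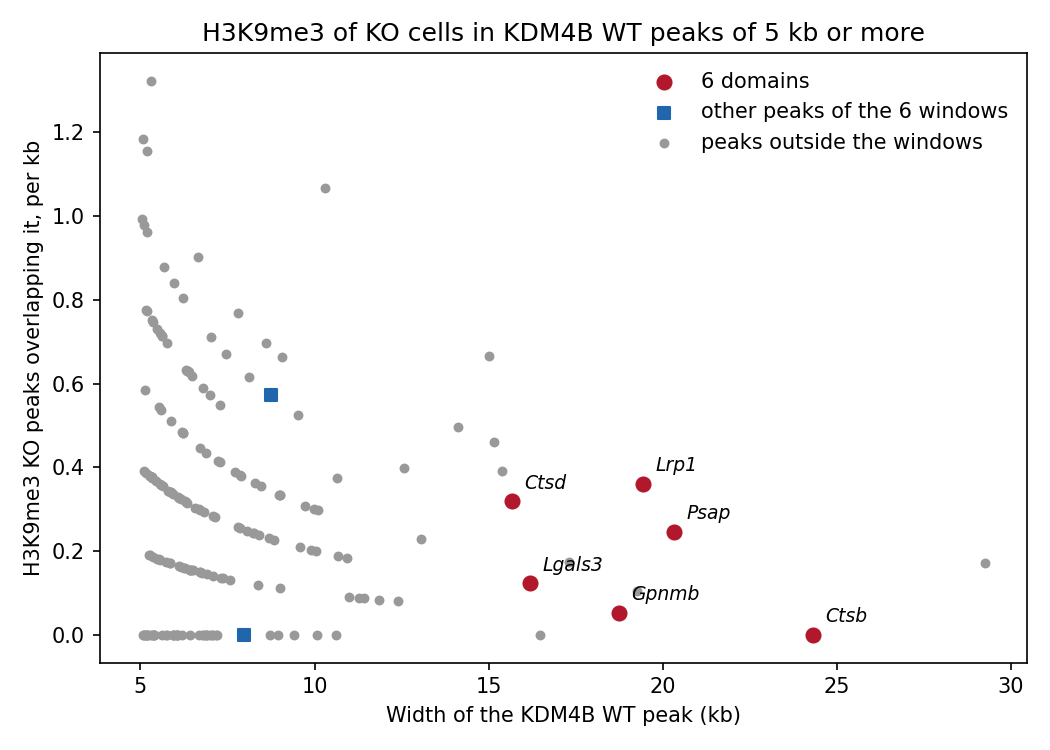
H3K9me3 KO peaks per kb against width in kb for each KDM4B WT peak of 5 kb or more, with the 6 domains in red, the other wide peaks of their windows in blue and peaks outside the windows in grey. The domains range from 0 per kb at Ctsb to 0.360 per kb at Lrp1 and lie within the range of the other peaks, 0 to 1.32 per kb.

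Around the 6 domains as a set, H3K9me3 of KO cells lay above its mean over the chromosomes out to 100 kb. Within 5 kb of either border there were 0.200 H3K9me3 midpoints per kb (0.103 to 0.349), and between 50 and 100 kb there were 0.100 (0.0763 to 0.129), against 0.0215 per kb over the chromosomes. The intervals of the 0.200 and the 0.100 overlap, and a decline with distance was not tested. KDM4B coverage over the same distances was 43.4% and 7.86%. Around the other peaks of 10 kb or more the H3K9me3 densities were 0.109 (0.0703 to 0.160) within 5 kb and 0.113 per kb (0.0997 to 0.128) between 50 and 100 kb. Lrp1 raised the values of the 6: without it they were 0.140 (0.0563 to 0.288) within 5 kb and 0.0700 (0.0488 to 0.0974) between 50 and 100 kb.

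The surroundings of single domains differed among themselves. Between 50 and 100 kb there were 0.250 H3K9me3 midpoints per kb (0.162 to 0.369) around Lrp1, 0.160 (0.0914 to 0.260) around Psap and 0.120 (0.0620 to 0.210) around Ctsd. There were 0.0300 (0.00619 to 0.0877) each around Ctsb and Lgals3. Around Gpnmb there were 0.0100 (0.000253 to 0.0557), a value that rests on 1 peak. The intervals of Ctsb, Lgals3 and Gpnmb all hold the mean over the chromosomes, 0.0215 per kb. Those of Lrp1, Psap and Ctsd lie above it. Ctsb, Gpnmb and Lgals3 had the lowest H3K9me3 values of the 6 both in their domains and at this distance. In the domains their intervals overlap those of Ctsd, Psap and Lrp1. The exact interval of Ctsb ends at 0.152 per kb, just above the 0.145 where that of Lrp1 begins. Between 50 and 100 kb the intervals of Ctsb and Lgals3 overlap that of Ctsd but end at 0.0877, below those of Psap and Lrp1. At this distance the interval of Gpnmb lies below those of Ctsd, Psap and Lrp1.

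**Figure D4:**
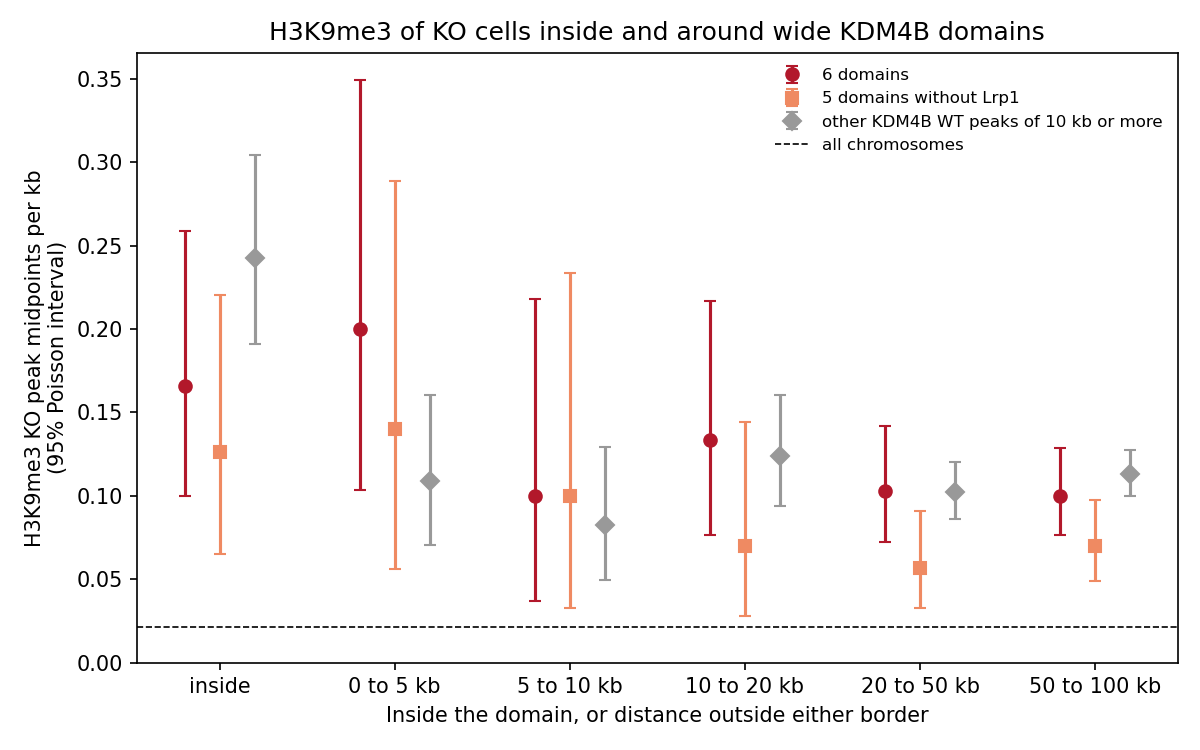
H3K9me3 KO peak midpoints per kb inside the domains and by distance in kb outside either border, with 95% Poisson intervals for counting error, for the 6 domains, for 5 without Lrp1 and for 23 other KDM4B WT peaks of 10 kb or more. The dashed line is the mean over the chromosomes, 0.0215 per kb, and the points of the 3 sets all lie above it.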

How the data were processed

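Per the submitters' processing notes, the authors used Bowtie and SAMtools, with MACS for KDM4B and MACS2 for H3K9me3 and H3, and listed builds mm9 and hg19. Of the 6 deposited lists, 5 give chromosome, start and end, with no score. The H3 WT table came from MACS2 2.1.4 at a q-value threshold of 0.05, per the file headers. For the other lists, thresholds, controls, pooling and any use of the yeast spike-in are not given here. The 2 input samples were not analysed here.

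Starts were converted to count from 1. Overlap meant at least 1 bp. Poisson intervals are exact. The limit stated for a count of 0 is 3 counts, which lies below the upper end of its exact interval. Densities over the chromosomes use the 2568 Mb between the first and last peak on each. Counting was done in Python 3.11.15 with numpy 2.4.6, pandas 2.3.3 and scipy 1.17.1, tested on simulated peaks and checked against bedtools 2.31.1. Windows, members and lists were chosen with earlier results of these data known. All 6 genes are named, with their neighbours in the gene table and wide KDM4B peaks elsewhere. Marker genes of stromal cells and macrophages, and lysosomal genes beyond the windows, were not located in mm9 here. Alternatives were other membership, overlap, merging and width rules.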

Additional observations from a re-analysis of the deposited data

How the results depend on the processing

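No paired analysis was possible because each antibody and genotype has 1 library. Of the settings planned, 27 moved no value beyond its interval or by over 1.5 times, 4 moved a value and 1 reversed a direction. The 27 include those for the lists with 0 peaks in the windows, which could not move. Merging peaks within 1 kb left 15 of the 70 KDM4B WT peaks and 38 of the 66 H3K9me3 KO peaks, by construction. Joined runs had a median width of 28.97 kb, against 19.1 kb for single peaks. Among other wide KDM4B peaks, the share with H3K9me3 was 86.96% at 10 kb or more, against 77.0% at 5 kb or more. The share of length under H3K9me3 in the domains minus that in the rest of the windows was -1.90 percentage points. It reversed to 1.64 when the rest was limited to sequence without KDM4B, which leaves out the marked smaller peaks, and to 0.947 without the Lrp1 window. That setting, chosen after seeing the data, also left 24 KDM4B and 23 H3K9me3 peaks. The counts of 0 stayed at 0 when windows were widened by 20 kb. The nearest peak of those lists lay 2053 kb from a domain (Psap), so this widening could not change them. A score threshold could not be applied, and the depth behind the KDM4B and H3K9me3 lists is unknown.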

Other observations

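Of the KDM4B WT peaks of 5 kb or more within 100 kb of a domain, 3 were not domains themselves. The peaks directly above the Psap and Gpnmb domains are described with those genes. The third lay outside the windows, 67.6 kb above the Psap domain on chromosome 10 from 59827961 to 59837546. It was 9.59 kb wide and held 2 H3K9me3 peaks of KO cells, which covered 4.91% of it. No such peak lay within 100 kb of the Ctsb, Lrp1, Lgals3 or Ctsd domains.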
